A study of Mus musculus with 12 samples.

Results

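The genes described here make, take up, sense and export cholesterol. They are 36 of the 57490 genes in the count table, taken by symbol from a fixed list and split by role into 18 genes of synthesis, 8 of uptake and regulation, and 10 of efflux and transport. All 36 had enough counts to be tested. Kidney mRNA from 12 male mice on the BKS background was sequenced, 1 library per mouse and 4 mice per group, all 13 weeks old. Ctrl mice were heterozygous db/m animals with a random blood glucose under 11.1 mmol/L, and they were given purified water by gavage. Model mice were db/db animals, which carry the Lepr db mutation of the leptin receptor in both copies and had been chosen for a random glucose of at least 16.7 mmol/L, also given water. YHY mice were db/db animals chosen in the same way and treated with a water extract of the herbal decoction Yiqi Huoxue Yangyin, labelled 6.24 g/mL, by gavage in a volume of 50 µL for each 10 g of weight, once daily during 4 weeks. The sample labels name whole kidney tissue and the series design names renal cortex, and which dose group of the study was sequenced is not stated.

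Cells build cholesterol from acetyl-CoA through mevalonate, the isoprenoid diphosphates, squalene and lanosterol, and a set of demethylases, reductases and isomerases turns lanosterol into cholesterol. When membrane sterol is low, the escort protein Scap carries the transcription factor precursor Srebf2 out of the endoplasmic reticulum, and its released fragment switches on the synthesis genes, while the Insig proteins hold Scap back when sterol is plentiful. Oxysterols activate the LXR nuclear receptors Nr1h2 and Nr1h3, which switch on exporters such as Abca1 and Abcg1. In the kidney, tubule cells take up filtered lipoproteins and also make sterol themselves.

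The libraries held 24415658 to 33276634 counts each, and the scarcest values rest on few counts: Idi1 had 2 counts in its lowest mouse, YHY 2, while Cyp51 had at least 190 in every mouse. The libraries of the diabetic mice stood apart in their share of counts from the 37 mitochondrial genes. That share was 18.6, 22.7, 18.4 and 18.5% in Ctrl 1 to 4, 41.2, 58.9, 55.3 and 53.4% in Model 1 to 4 and 53.8, 64.6, 54.6 and 54.2% in YHY 1 to 4. The widest Wilson 95% interval, that of Model 4, ran from 53.3% to 53.4%, and such intervals cover counting error only. All 8 diabetic libraries lay above the 4 Ctrl libraries, Model 1 was the lowest of the diabetic libraries, and Ctrl 2 and YHY 2 were the highest of their groups. Levels are given in CPM, the counts of a gene over the total of its library, with that total scaled by TMM, a trimmed mean of ratios between libraries. Scaling by library size alone moved the median log2 fold change of all genes from 0.04 to -0.39 in Model against Ctrl and from 0.10 to -0.33 in YHY against Ctrl, and upper-quartile scaling moved it to 0.14 and 0.22. P-values came from the quasi-likelihood test of edgeR, taken on both sides, and were adjusted after Benjamini and Hochberg across the 17431 genes that passed the filter on low counts. A gene is called changed where the adjusted p is under 0.05. Gene positions are those of build GRCm39.

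Per kilobase of gene length, Cyp51 and Apoe were the most abundant members in Ctrl, at 50.9 ± 5.34 and 50.1 ± 9.77 CPM per kilobase (mean ± SD, n = 4), and these levels did not differ beyond their spread. Ebp followed at 37.1 ± 4.55, Hmgcs1 at 36.5 ± 4.66 and Mvd at 36.3 ± 4.85 CPM per kilobase, again within each other's spread. Of uptake and regulation genes, Npc2, a lysosomal sterol carrier, and Insig1 had the highest means in Ctrl, 14.1 ± 0.604 and 13.2 ± 3.69 CPM per kilobase, with overlapping spread. In Model the order was led by Apoe at 70.3 ± 17.1, Cyp27a1 at 30.2 ± 7.90 and Nr1h2 at 30.2 ± 4.37 CPM per kilobase, and of synthesis genes Hmgcs1 had the highest mean, 26.9 ± 5.75, with Ebp next at 18.3 ± 5.67 and an overlapping spread. Scap at 10.5 ± 2.32 and Insig1 at 9.21 ± 2.59 CPM per kilobase had the highest means of uptake and regulation there and did not differ beyond their spread. In YHY, Apoe stood at 99.8 ± 49.3 and Cyp27a1 at 42.4 ± 10.4 CPM per kilobase, with overlapping spread. Ebp at 15.5 ± 3.44 and Hmgcs1 at 14.6 ± 0.353 had the highest synthesis means in YHY, and Mylip at 6.38 ± 0.567, Npc2 at 6.33 ± 1.01 and Scap at 6.13 ± 0.935 those of uptake and regulation, in each case with overlapping spread. Cyp51 stood at 6.08 ± 1.06 CPM per kilobase in Model and 2.05 ± 0.389 in YHY. These orders depend on the length used, here the deposited gene length. It was 5438 bases for Npc2, 7443 for Scap and 3233 for Mylip, and their longest protein-coding transcripts held 3299, 4227 and 3065 bases. Without length, the YHY means were 45.7 CPM for Scap, 34.4 CPM for Npc2 and 20.6 CPM for Mylip.

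**Figure D1:**
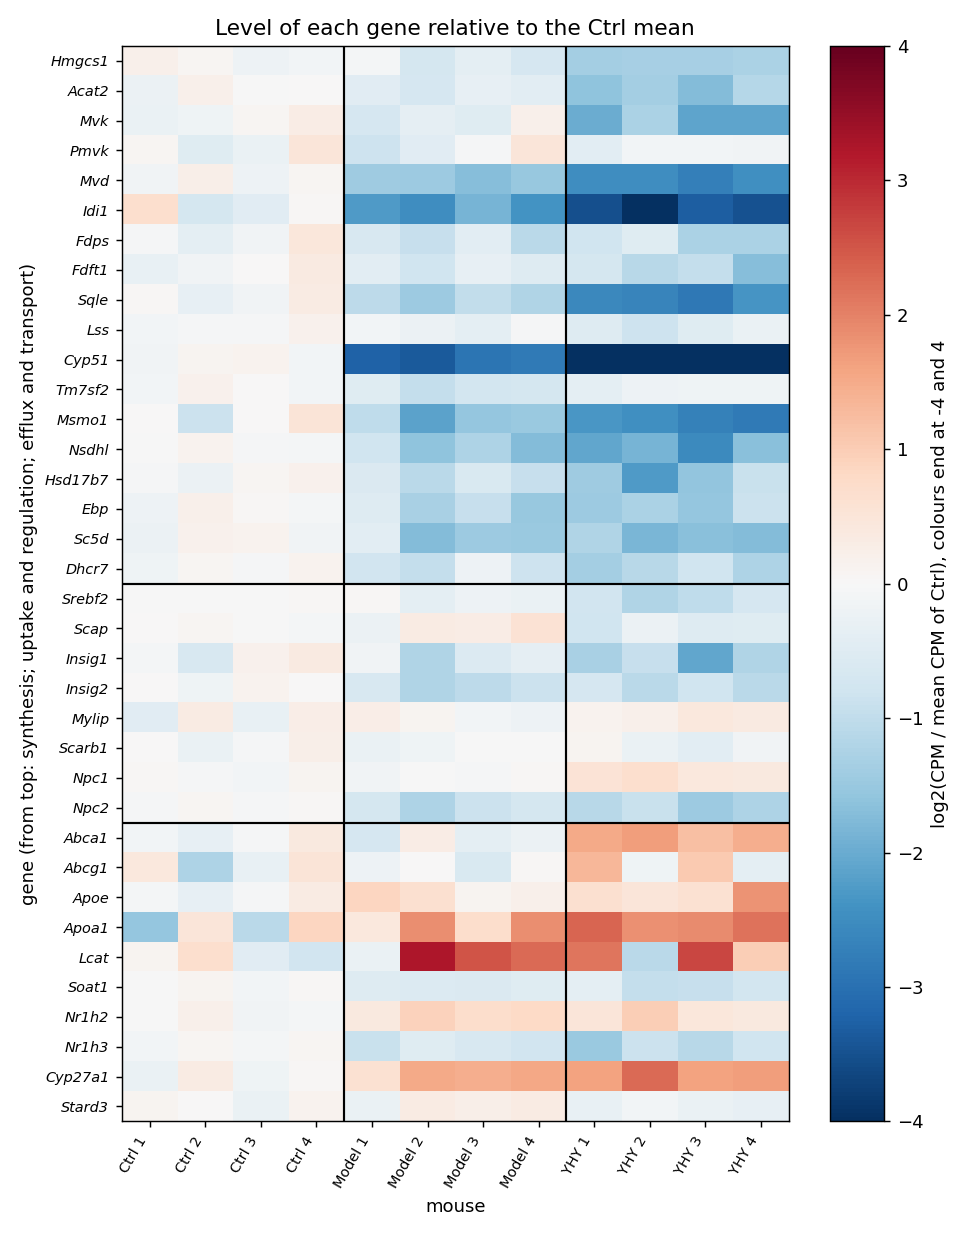
Level of the 36 genes in each of the 12 mice, as log2 of CPM over the Ctrl mean, with genes in rows grouped by role, mice in columns grouped as Ctrl, Model and YHY, and colours ending at -4 and 4. Most synthesis rows are below the Ctrl mean in Model and lower again in YHY, while Abca1 is high in the 4 YHY mice.

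Model against Ctrl asks how diabetic kidney differs from non-diabetic kidney. Of the 36 genes 18 fell and 4 rose, against 18.5% of all genes tested that fell and 19.6% that rose, and the groups did not overlap for 20 of the 36, against 40.2% of all genes tested. The median log2 fold change of the members was -0.48, against 0.04 over all genes. Synthesis held 14 of the 18 falls and no rise, with a median of -0.76, a 1.70-fold lower level. Among uptake and regulation genes 2 fell and 6 were not called, with a median of -0.15, and among efflux and transport genes 4 rose and 2 fell, with a median of 0.33 that turned to -0.11 under library size alone, where the median of all genes was -0.39. Under library size alone the same comparison gave 2 rises and 24 falls among members and 1547 rises and 5667 falls among all genes, against 3412 and 3219 in the TMM fit, and upper-quartile scaling gave 4025 and 2622 among all genes. Against that shift of all genes the synthesis median under library size alone, -1.20, was lower and the efflux median higher. In bulk tissue, fewer cells of a type and less RNA per cell cannot be told apart.

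Summed over the 18 synthesis genes, the level was 918, 980.4, 938 and 967 CPM in Ctrl 1 to 4, 521, 369.9, 462 and 409.9 CPM in Model 1 to 4 and 259, 267, 244 and 284 CPM in YHY 1 to 4. The 3 groups followed one another without overlap. Cyp51 made up 21.4% to 26.5% of that sum in Ctrl mice, 4.60% to 7.72% in Model mice and 2.80% to 4.15% in YHY mice. Of the 18 genes, 5, 9, 6 and 9 were under 50% of their Ctrl mean in Model 1 to 4. The same held for 13, 14, 13 and 13 of them in YHY 1 to 4 and for none in Ctrl mice. Each Ctrl mouse is part of the mean it was set against. The share of all genes under 50% was not computed, so these counts have no background. The mitochondrial share moved over the same mice, and its part in the synthesis sum was not tested. With the mitochondrial genes left out of the table before scaling, 15 synthesis genes fell and none rose in Model against Ctrl. Among the 16952 genes tested in that fit, 3276 fell and 3380 rose.

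Among the enzymes that turn lanosterol into cholesterol, Cyp51 (ENSMUSG00000001467, chromosome 5, bases 4131145 to 4154746), the lanosterol demethylase, stood at 202, 241, 249 and 207 CPM in Ctrl 1 to 4 and 24.0, 21.8, 29.9 and 31.6 CPM in Model 1 to 4. Every Model mouse lay below every Ctrl mouse. It was 8.37-fold lower (log2 fold change -3.06 ± 0.18 (SE), edgeR adjusted p = 3.53e-08). The size of this fall is uncertain, since Akap9, at 24.5 CPM on average in Model, overlaps Cyp51. Nsdhl (ENSMUSG00000031349, chromosome X, bases 71962163 to 72002120), a sterol dehydrogenase that removes carboxyl groups, stood at 70.4, 78.6, 68.8 and 67.6 CPM in Ctrl 1 to 4 and 41.3, 23.2, 30.5 and 21.4 CPM in Model 1 to 4. The 4 Model mice were all lower, with Model 1 the highest of them. The mean level was 2.45-fold lower (log2 fold change -1.29 ± 0.21 (SE), edgeR adjusted p = 0.000223). Msmo1 (ENSMUSG00000031604, chromosome 8, bases 65171173 to 65186826), a methylsterol monooxygenase, stood at 34.2, 18.6, 33.9 and 48.1 CPM in Ctrl 1 to 4 and 16.7, 7.67, 11.6 and 12.1 CPM in Model 1 to 4. The groups did not overlap, although Ctrl 2 was well below the other Ctrl mice. In Model it was 2.80-fold lower (log2 fold change -1.48 ± 0.26 (SE), edgeR adjusted p = 0.000418).

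Ebp (ENSMUSG00000031168, chromosome X, bases 8051568 to 8059751), a sterol isomerase, stood at 75.2, 99.4, 87.7 and 80.4 CPM in Ctrl 1 to 4 and 59.5, 35.1, 44.8 and 29.7 CPM in Model 1 to 4. The Model values spread from Model 4, the lowest, to Model 1, the highest, and all lay below Ctrl. Ebp was 2.02-fold lower (log2 fold change -1.02 ± 0.21 (SE), edgeR adjusted p = 0.00119). Sc5d (ENSMUSG00000032018, chromosome 9, bases 42162891 to 42175552), a sterol desaturase, stood at 28.0, 37.2, 36.4 and 29.8 CPM in Ctrl 1 to 4 and 24.3, 9.76, 12.1 and 11.8 CPM in Model 1 to 4. Model 1 was the highest diabetic mouse and still below Ctrl. Its level was 2.26-fold lower (log2 fold change -1.17 ± 0.24 (SE), edgeR adjusted p = 0.00147). The reductases of this stretch were Tm7sf2, Hsd17b7 and Dhcr7, whose log2 fold changes were -0.70, -0.78 and -0.66, all 3 called. Hsd17b7 lost its call without Model 2 (edgeR adjusted p = 0.0513, range over all alternatives 0.00131 to 0.0513).

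Upstream of lanosterol, Mvd (ENSMUSG00000006517, chromosome 8, bases 123160340 to 123170161), the mevalonate diphosphate decarboxylase, stood at 61.6, 78.6, 58.9 and 70.9 CPM in Ctrl 1 to 4 and 25.0, 24.6, 20.6 and 23.8 CPM in Model 1 to 4. The lowest Ctrl mouse was above the highest Model mouse. This gene was 2.87-fold lower (log2 fold change -1.52 ± 0.14 (SE), edgeR adjusted p = 2.55e-06). Sqle (ENSMUSG00000022351, chromosome 15, bases 59186926 to 59203041), the squalene epoxidase, stood at 62.9, 48.0, 55.4 and 75.9 CPM in Ctrl 1 to 4 and 29.5, 22.0, 30.6 and 26.5 CPM in Model 1 to 4. No Model value reached the Ctrl values. Sqle was 2.23-fold lower (log2 fold change -1.16 ± 0.17 (SE), edgeR adjusted p = 9.43e-05). Idi1 (ENSMUSG00000058258, chromosome 13, bases 8935537 to 8942487), the isopentenyl diphosphate isomerase, stood at 18.1, 6.99, 8.30 and 11.7 CPM in Ctrl 1 to 4 and 2.35, 2.00, 3.11 and 2.14 CPM in Model 1 to 4. Model mice were low throughout, and the Ctrl mice themselves spread widely, from Ctrl 2 to Ctrl 1. Idi1 was 4.70-fold lower (log2 fold change -2.23 ± 0.41 (SE), edgeR adjusted p = 0.000596).

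Hmgcs1 (ENSMUSG00000093930, chromosome 13, bases 120151915 to 120169796), which makes HMG-CoA, stood at 192, 178, 146 and 154 CPM in Ctrl 1 to 4 and 159, 103, 128 and 104 CPM in Model 1 to 4. Model 1 lay within the Ctrl range and the other Model mice below it. Its change was small beside those above (log2 fold change -0.44 ± 0.16 (SE), edgeR adjusted p = 0.039). The call was lost without Ctrl 1, Ctrl 2, Model 2, Model 3 or Model 4 (edgeR adjusted p = 0.094, 0.082, 0.125, 0.071 and 0.119, range over all alternatives 0.00297 to 0.125). Acat2 (ENSMUSG00000023832, chromosome 17, bases 13161777 to 13179634), the cytosolic thiolase that feeds that step, stood at 51.9, 70.7, 60.7 and 61.2 CPM in Ctrl 1 to 4 and 44.5, 38.6, 49.1 and 46.1 CPM in Model 1 to 4. The groups did not overlap. Its change was of like size (log2 fold change -0.46 ± 0.15 (SE), edgeR adjusted p = 0.0282), and the call was lost without Ctrl 2, Model 2 or Model 4 (edgeR adjusted p = 0.0839, 0.0899 and 0.0514, range over all alternatives 0.00101 to 0.0899). Hmgcs1 was not called either under upper-quartile scaling (edgeR adjusted p = 0.102) and with no filter on low counts (edgeR adjusted p = 0.057), nor Acat2 under upper-quartile scaling (edgeR adjusted p = 0.0677). Fdps, the farnesyl diphosphate synthase, fell (log2 fold change -0.74), a call lost without Model 4 (edgeR adjusted p = 0.0546, range over all alternatives 0.00114 to 0.0546).

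The 4 synthesis genes not called in Model against Ctrl were Mvk, Pmvk, Fdft1 and Lss, with log2 fold changes from -0.51 to -0.13 and adjusted p from 0.0521 to 0.734. Fdft1 was called lower under 10 of 22 alternatives, among them library size alone (edgeR adjusted p = 0.00836, range over alternatives 0.00836 to 0.149). These 4 are the kinases of mevalonate and of phosphomevalonate, squalene synthase and lanosterol synthase.

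**Figure D2:**
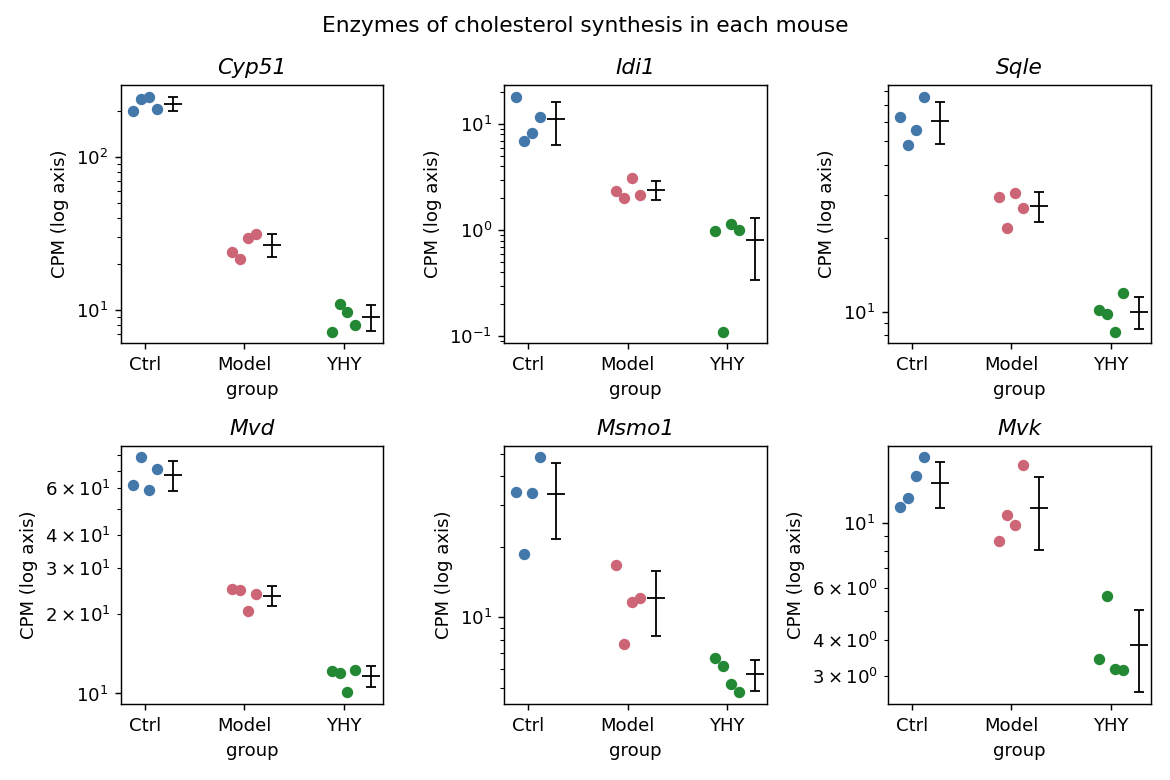
CPM on a log axis of Cyp51, Idi1, Sqle, Mvd, Msmo1 and Mvk in each mouse of Ctrl, Model and YHY, with the mean ± SD of 4 mice. Model points sit below Ctrl for every panel but Mvk, and YHY points sit below Model in all 6 panels.

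Among the genes of uptake and regulation, Insig2 (ENSMUSG00000003721, chromosome 1, bases 121232082 to 121260318), which retains Scap in the endoplasmic reticulum, stood at 29.0, 25.5, 31.6 and 28.8 CPM in Ctrl 1 to 4 and 18.3, 12.6, 14.1 and 15.9 CPM in Model 1 to 4. All Model mice were below all Ctrl mice. Insig2 was 1.89-fold lower (log2 fold change -0.92 ± 0.15 (SE), edgeR adjusted p = 0.000293). Npc2 (ENSMUSG00000021242, chromosome 12, bases 84801336 to 84819926), which hands sterol out of the lysosome, stood at 74.1, 80.5, 74.1 and 78.9 CPM in Ctrl 1 to 4 and 46.8, 32.8, 42.4 and 47.7 CPM in Model 1 to 4. Model 2 was the lowest, and no Model mouse reached Ctrl. Npc2 was 1.81-fold lower (log2 fold change -0.86 ± 0.15 (SE), edgeR adjusted p = 0.000407). The other 6 were not called, Srebf2, Scap, Insig1, Scarb1, Npc1 and Mylip, an E3 ubiquitin ligase acting on lipoprotein receptors, with log2 fold changes from -0.52 to 0.28. Scap stood at 64.5, 68.0, 63.1 and 61.5 CPM in Ctrl 1 to 4 and 54.7, 81.5, 79.7 and 96.4 CPM in Model 1 to 4. Model 1 was the lowest of the 8 and the groups overlapped (edgeR adjusted p = 0.197).

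Efflux and transport moved in both directions. Cyp27a1 (ENSMUSG00000026170, chromosome 1, bases 74752733 to 74777051), which makes oxysterols in mitochondria, stood at 21.6, 32.8, 23.1 and 26.7 CPM in Ctrl 1 to 4 and 40.0, 75.1, 71.1 and 76.0 CPM in Model 1 to 4. Every Model mouse was above every Ctrl mouse and Model 1 was the lowest of the Model mice. It rose 2.52-fold (log2 fold change 1.33 ± 0.22 (SE), edgeR adjusted p = 0.00024). Nr1h3 (ENSMUSG00000002108, chromosome 2, bases 91014406 to 91033179), an LXR receptor, stood at 44.8, 50.2, 45.8 and 50.9 CPM in Ctrl 1 to 4 and 25.8, 34.2, 31.0 and 28.0 CPM in Model 1 to 4. Its groups were apart, with Model lower. It fell 1.61-fold (log2 fold change -0.69 ± 0.16 (SE), edgeR adjusted p = 0.00268). The paralog Nr1h2 rose (log2 fold change 0.72, edgeR adjusted p = 0.00273), and under library size alone this call was lost (edgeR adjusted p = 0.187, range over alternatives 0.000246 to 0.187). Soat1, which esterifies sterol for storage, fell (log2 fold change -0.54, edgeR adjusted p = 0.00927).

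Apoe (ENSMUSG00000002985, chromosome 7, bases 19430034 to 19433113), the apolipoprotein, stood at 102, 85.6, 105 and 136 CPM in Ctrl 1 to 4 and 193, 168, 116 and 124 CPM in Model 1 to 4. The groups overlapped and it was not called (log2 fold change 0.49 ± 0.27, edgeR adjusted p = 0.165). Abca1, Abcg1 and Stard3 were not called either, with log2 fold changes from -0.21 to 0.17. The scarce Apoa1 and Lcat rose, at mean levels of 0.988 and 0.467 CPM in Ctrl and 2.53 and 2.41 CPM in Model, with overlapping groups. The call on Apoa1 was lost without Ctrl 1, Ctrl 3, Model 2 or Model 4 (edgeR adjusted p = 0.117, 0.122, 0.118 and 0.117, range over all alternatives 0.0154 to 0.156), and also under library size alone (edgeR adjusted p = 0.156) and in a fit of the 8 mice compared (edgeR adjusted p = 0.055). The call on Lcat was lost without Ctrl 3, Ctrl 4 or Model 2 (edgeR adjusted p = 0.0527, 0.0523 and 0.0683, range over all alternatives 0.00173 to 0.0683). With Ctrl 3 or Model 2 left out, 2 of the 36 genes rose, against 2551 and 2696 of all genes.

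**Figure D3:**
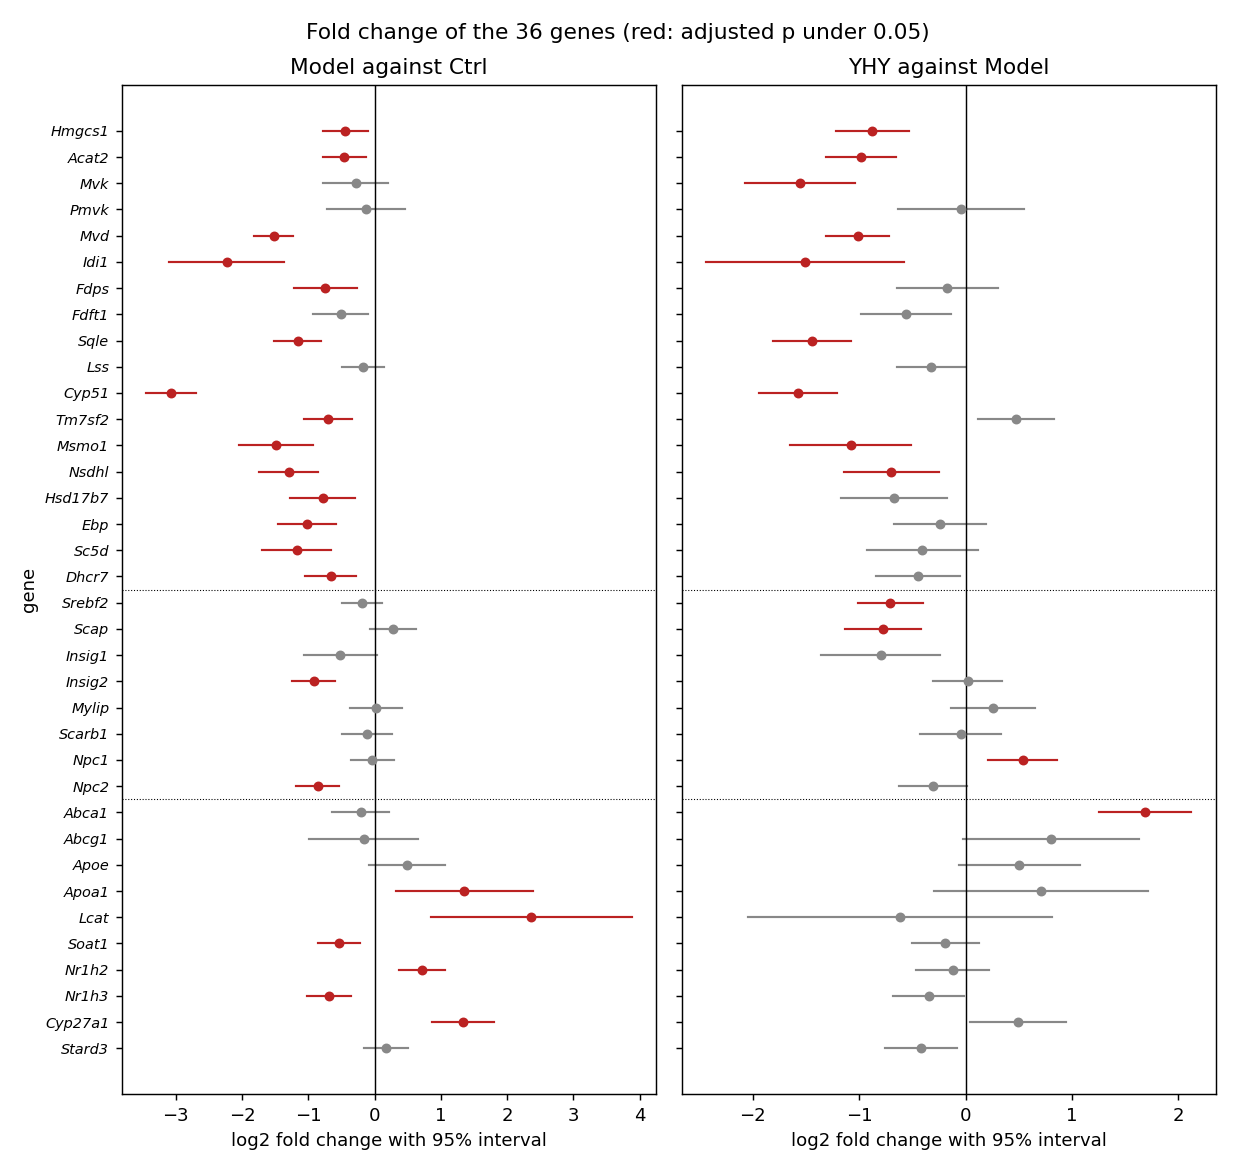
Log2 fold change with its 95% interval for the 36 genes, with 1 panel for Model against Ctrl and another for YHY against Model, and with red points for genes called at adjusted p under 0.05. Cyp51 is the lowest point in both panels, and Abca1 is the highest in YHY against Model.

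Promoters of the members were also read, as a description with no test. They came from RefSeq (build GRCm38.p6), in windows of 250 bases before to 50 after the start, and 30 of the 36 genes had a window. The other 6 are Npc1, Abcg1, Sqle, Fdps, Fdft1 and Scarb1. The CCAAT box, letters CCAAT, was in 23 of the 30 and in 14 of the 15 synthesis genes, against 41.1% of the 27025 genes with a window. The GC box GGGCGG was in 24 of 30 and in 14 of 15 synthesis genes, against 38.2%. The sterol element TCACNCCAC was in 2, Hmgcs1 and Stard3, against 1.44%, the E-box CACGTG in 6 (20%) against 8.09% while its shorter form ACGT was in 7 (23.3%) against 33.8%, and the LXR direct repeat in none against 0.0148%, all read on both strands. A match is a string of letters and not a site, and no match says only that these letters are not in the window. The 250 bases before the start are shown for Hmgcs1 (chr13:119690101-119690350, plus strand), which holds the sterol element, for Cyp51 (chr5:4104698-4104947, minus strand) and Mvk (chr5:114444019-114444268, plus strand), the genes with the lowest log2 fold changes in YHY against Model, and for the exporter Abca1 (chr4:53159896-53160145, minus strand), which moved the other way. Capitals mark CCAAT boxes in either orientation and the sterol element, and the Abca1 stretch has neither. The CCAAT box was not limited to members that fell. Cyp27a1, which rose in Model against Ctrl, had 2 of them, 71 and 34 bases before the start, and Acat2, which fell, had none. The 27025 genes with a window outnumber the 17431 tested, so they include genes too scarce to test here.
Hmgcs1: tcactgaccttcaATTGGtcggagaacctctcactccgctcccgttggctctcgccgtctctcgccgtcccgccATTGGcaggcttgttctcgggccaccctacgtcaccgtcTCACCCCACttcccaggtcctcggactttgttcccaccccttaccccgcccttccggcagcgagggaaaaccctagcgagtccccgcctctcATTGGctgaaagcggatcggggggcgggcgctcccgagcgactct
Cyp51: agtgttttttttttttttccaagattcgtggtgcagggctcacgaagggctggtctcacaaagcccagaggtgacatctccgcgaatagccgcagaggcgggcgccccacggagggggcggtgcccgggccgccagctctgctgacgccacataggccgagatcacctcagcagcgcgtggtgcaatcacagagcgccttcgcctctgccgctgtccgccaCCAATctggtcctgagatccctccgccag
Mvk: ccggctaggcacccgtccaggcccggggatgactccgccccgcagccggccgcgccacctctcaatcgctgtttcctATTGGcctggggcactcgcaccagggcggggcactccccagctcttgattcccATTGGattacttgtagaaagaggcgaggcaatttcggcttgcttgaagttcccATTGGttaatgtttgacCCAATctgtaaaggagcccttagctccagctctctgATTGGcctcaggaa
Abca1: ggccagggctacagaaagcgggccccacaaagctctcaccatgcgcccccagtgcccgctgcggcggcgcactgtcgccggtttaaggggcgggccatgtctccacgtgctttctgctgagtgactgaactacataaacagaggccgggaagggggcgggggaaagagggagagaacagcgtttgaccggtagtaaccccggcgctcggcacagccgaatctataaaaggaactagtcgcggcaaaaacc

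YHY against Model asks what the decoction changed in diabetic kidney. Here 11 of the 36 genes fell and 2 rose, against 7.62% of all genes tested that fell and 5.63% that rose, and 14 had groups that did not overlap, against 16.1% of all genes. The median log2 fold change was -0.38, against 0.02 over all genes. Synthesis held 9 of the falls, with a median of -0.69, uptake and regulation had 2 falls and 1 rise (median -0.17), and efflux and transport had 1 rise (median 0.19). The efflux median was 0.0662 without Model 1 and 0.0908 without YHY 2. It was 0.0597 with 9 mice (without Ctrl 2, Model 1 and YHY 4) and 0.505 with at least 10 counts in every mouse. Library size alone gave 7 falls, 6 of them in synthesis, and 1 rise among members, and 686 falls and 491 rises among all genes, against 1329 and 982 in the TMM fit. Where a gene had only to change more than 1.2-fold with an unadjusted p below 0.05, 18 members fell and 4 rose, against 14.7% and 13.9% of all genes. Both groups are diabetic, and their mitochondrial shares overlapped, from 41.2% to 58.9% in Model and from 53.8% to 64.6% in YHY, and the part of that share in these counts was not tested. Leaving the mitochondrial genes out gave 11 falls and 2 rises among members, and 1263 falls and 1083 rises among the 16952 genes tested in that fit.

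Cyp51 stood at 7.25, 11.1, 9.83 and 8.06 CPM in YHY 1 to 4. All 4 were below the lowest Model mouse. It fell 2.97-fold against Model (log2 fold change -1.57 ± 0.17 (SE), edgeR adjusted p = 0.000263). Sqle stood at 10.1, 9.73, 8.26 and 11.9 CPM in YHY 1 to 4. The YHY mice lay close together and under every Model mouse. It fell 2.72-fold against Model (log2 fold change -1.44 ± 0.17 (SE), edgeR adjusted p = 0.000322). Mvd stood at 12.2, 12.0, 10.1 and 12.3 CPM in YHY 1 to 4. They sat well below Model, with YHY 3 the lowest. It fell 2.02-fold against Model (log2 fold change -1.02 ± 0.14 (SE), edgeR adjusted p = 0.000513).

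Mvk, which phosphorylates mevalonate, was at 11.4, 12.1, 14.5 and 16.8 CPM in Ctrl 1 to 4 and 8.66, 10.7, 9.82 and 15.8 CPM in Model 1 to 4, and these groups overlapped. Mvk stood at 3.43, 5.64, 3.16 and 3.14 CPM in YHY 1 to 4. YHY 2 was the highest of the 4 and still below every Model and Ctrl mouse. It fell 2.94-fold against Model (log2 fold change -1.56 ± 0.24 (SE), edgeR adjusted p = 0.00128). Acat2 stood at 20.0, 23.9, 18.2 and 27.9 CPM in YHY 1 to 4. No YHY mouse reached the Model range. It fell 1.98-fold against Model (log2 fold change -0.99 ± 0.16 (SE), edgeR adjusted p = 0.00136). Hmgcs1 stood at 65.7, 67.1, 66.9 and 69.5 CPM in YHY 1 to 4. The 4 mice were close to each other and lower than all Model mice. It fell 1.84-fold against Model (log2 fold change -0.88 ± 0.16 (SE), edgeR adjusted p = 0.00341). Mvk is ENSMUSG00000041939, chromosome 5, bases 114582330 to 114598652.

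Msmo1 stood at 6.68, 6.19, 5.17 and 4.77 CPM in YHY 1 to 4. The groups were apart. It fell 2.11-fold against Model (log2 fold change -1.08 ± 0.27 (SE), edgeR adjusted p = 0.0162). Its call was lost without Model 1 (edgeR adjusted p = 0.0585, range over all alternatives 0.000525 to 0.0585) and under library size alone (edgeR adjusted p = 0.0501). Idi1 stood at 0.992, 0.111, 1.15 and 1.01 CPM in YHY 1 to 4. YHY 2 was far below the other 3, and no YHY value reached Model. It fell 2.85-fold against Model (log2 fold change -1.51 ± 0.44 (SE), edgeR adjusted p = 0.033). Idi1 lost its call without Model 1, Model 3 or Model 4 (edgeR adjusted p = 0.0664, 0.0975 and 0.0522, range over all alternatives 0.00358 to 0.105), and also under library size alone (edgeR adjusted p = 0.0726), in a fit of the 8 mice compared (edgeR adjusted p = 0.105) and in a fit of 9 mice, without Ctrl 2, Model 1 and YHY 4 (edgeR adjusted p = 0.0651). Nsdhl stood at 17.1, 19.8, 12.3 and 22.6 CPM in YHY 1 to 4. YHY 4 was above the lowest Model mouse, so that the groups overlapped. It fell by a smaller factor (log2 fold change -0.70 ± 0.21 (SE), edgeR adjusted p = 0.0381), and the call was lost without Model 1, Model 3, YHY 1, YHY 2 or YHY 3 (edgeR adjusted p = 0.113, 0.0957, 0.0744, 0.0531 and 0.0947, range over all alternatives 0.00961 to 0.113). It was lost as well under library size alone (edgeR adjusted p = 0.064), in a fit of the 8 mice compared (edgeR adjusted p = 0.0982) and with the replicate number as a block (edgeR adjusted p = 0.066).

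The other 9 synthesis genes were not called, with log2 fold changes from -0.67 to 0.47. Tm7sf2 was the one with a value above 0 (edgeR adjusted p = 0.0779), and Ebp, the most abundant of them, stood at 31.2, 35.6, 29.3 and 47.0 CPM in YHY 1 to 4 overlapping Model, with YHY 3 just below its lowest mouse (log2 fold change -0.24 ± 0.20). Sc5d stood at 14.3, 9.29, 10.4 and 9.76 CPM in those mice, also overlapping Model (log2 fold change -0.41 ± 0.25).

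Among regulators, Srebf2 (ENSMUSG00000022463, chromosome 15, bases 82031382 to 82089580), the transcription factor of the pathway, stood at 60.7, 60.5, 61.4 and 64.5 CPM in Ctrl 1 to 4, 64.3, 46.8, 53.5 and 51.8 CPM in Model 1 to 4 and 36.6, 26.7, 30.7 and 38.6 CPM in YHY 1 to 4. All YHY mice were below all others. It fell 1.63-fold against Model (log2 fold change -0.71 ± 0.14 (SE), edgeR adjusted p = 0.0061), a call lost under library size alone (edgeR adjusted p = 0.0623, range over alternatives 0.000143 to 0.0623). Scap (ENSMUSG00000032485, chromosome 9, bases 110162356 to 110214018) stood at 37.2, 54.2, 45.1 and 46.1 CPM in YHY 1 to 4. These were below the Model mice. It fell 1.71-fold (log2 fold change -0.77 ± 0.17 (SE), edgeR adjusted p = 0.00814).

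Npc1 (ENSMUSG00000024413, chromosome 18, bases 12322749 to 12369457), the lysosomal sterol exporter, stood at 8.50, 7.96, 7.62 and 8.97 CPM in Ctrl 1 to 4, 7.56, 8.15, 8.08 and 8.51 CPM in Model 1 to 4 and 12.0, 13.2, 11.1 and 10.7 CPM in YHY 1 to 4. The YHY mice were above all others. It rose 1.45-fold (log2 fold change 0.54 ± 0.15 (SE), edgeR adjusted p = 0.0305), and the call was lost without Ctrl 1, Model 1, Model 2, Model 3, Model 4, YHY 1 or YHY 2 (edgeR adjusted p = 0.0506, 0.0684, 0.0624, 0.081, 0.0549, 0.062 and 0.0688, range over all alternatives 0.00625 to 0.134). With any 1 of these 7 mice left out, 1 member was called higher. Rises among all genes in these fits numbered 763, 634, 706, 419, 600, 869 and 707 in the same order, against 982. The call on Npc1 was lost as well under library size alone (edgeR adjusted p = 0.117), with no filter on low counts (edgeR adjusted p = 0.134) and in a fit of the 8 mice compared (edgeR adjusted p = 0.059). The same held with the replicate number as a block (edgeR adjusted p = 0.0564) and in a fit of 9 mice, without Ctrl 2, Model 1 and YHY 4 (edgeR adjusted p = 0.0515). The remaining 5, Insig1, Insig2, Mylip, Scarb1 and Npc2, were not called, from -0.80 to 0.26 in log2 fold change. Mylip stood at 12.4, 21.3, 13.7 and 20.5 CPM in Ctrl 1 to 4, 20.2, 18.4, 15.6 and 14.7 CPM in Model 1 to 4 and 18.6, 19.6, 22.6 and 21.7 CPM in YHY 1 to 4, with overlapping groups. Npc2 stood at 35.5, 41.2, 28.0 and 32.9 CPM in YHY 1 to 4, overlapping Model. Insig2 stood at 17.9, 13.6, 16.6 and 13.7 CPM in the same mice and also overlapped Model.

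Abca1 (ENSMUSG00000015243, chromosome 4, bases 53030787 to 53159895), the transporter that loads sterol onto apolipoprotein A-I, stood at 12.1, 10.3, 12.3 and 16.8 CPM in Ctrl 1 to 4, 8.14, 15.7, 9.91 and 10.9 CPM in Model 1 to 4 and 36.9, 41.3, 29.9 and 35.3 CPM in YHY 1 to 4. The 4 YHY mice were far above the other 8, which overlapped. It rose 3.22-fold against Model (log2 fold change 1.68 ± 0.21 (SE), edgeR adjusted p = 0.000322), the sole rise among the 10 genes of efflux and transport. The other 9 were not called, with log2 fold changes from -0.61 to 0.80. Apoe stood at 168, 149, 165 and 371 CPM in YHY 1 to 4, YHY 4 being far above the others. Cyp27a1 stood at 80.3, 126, 79.7 and 82.9 CPM in YHY 1 to 4. These values lay above Model with no overlap, but the gene was not called (log2 fold change 0.49 ± 0.21, edgeR adjusted p = 0.142). Nr1h3 stood at 17.0, 26.3, 22.4 and 27.7 CPM in YHY 1 to 4, overlapping Model (log2 fold change -0.35 ± 0.16, edgeR adjusted p = 0.154).

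**Figure D4:**
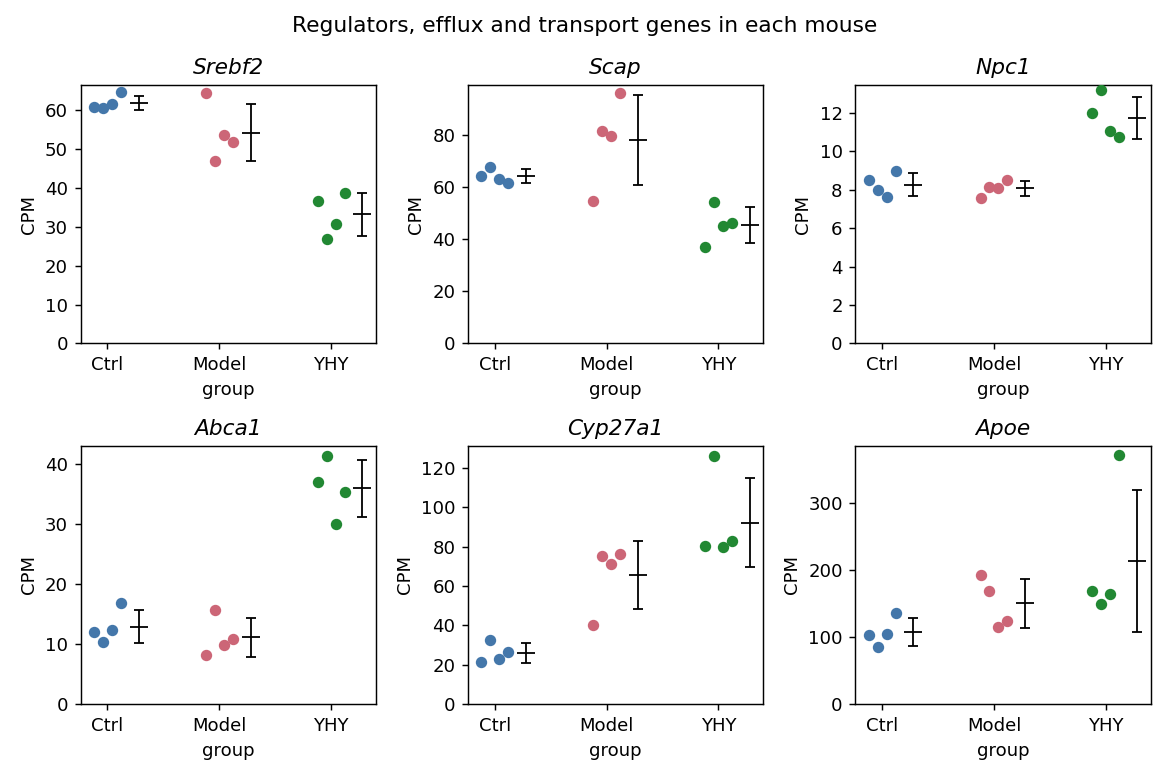
CPM of Srebf2, Scap, Npc1, Abca1, Cyp27a1 and Apoe in each mouse of Ctrl, Model and YHY, with the mean ± SD of 4 mice. The YHY points sit above all others for Abca1 and Npc1 and below all others for Srebf2 and Scap.

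YHY against Ctrl shares its mice with both other comparisons and places the treated diabetic kidney against the non-diabetic one. Of the 36 genes 23 fell and 6 rose, against 24.2% and 26.1% of all genes tested, and 30 had groups without overlap, against 44.6% of all genes. The median log2 fold change was -0.91, against 0.10 over all genes, and -1.45 over synthesis, where 16 of 18 fell. The medians were -0.69 over uptake and regulation and 0.82 over efflux and transport. Library size alone gave 26 falls and 3 rises among members, and 5977 and 2365 among all genes against 4215 and 4547 in the TMM fit. The sets of values side by side were -3.06, -1.57 and -4.64 for Cyp51 in Model against Ctrl, YHY against Model and YHY against Ctrl, and -0.28, -1.56 and -1.84 for Mvk. Cyp51 was 24.9-fold lower in YHY than in Ctrl (edgeR adjusted p = 7.26e-10), Idi1 13.4-fold (edgeR adjusted p = 7.45e-06) and Sqle 6.06-fold (edgeR adjusted p = 6.09e-08). Pmvk and Tm7sf2 were the synthesis genes not called.

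In uptake and regulation 5 genes fell, Srebf2, Scap, Insig1, Insig2 and Npc2, and Npc1 rose. Scap lost its call without YHY 1 (edgeR adjusted p = 0.0638, range over all alternatives 0.000305 to 0.0691) and under upper-quartile scaling (edgeR adjusted p = 0.0691). Npc1 lost its call without Ctrl 3 (edgeR adjusted p = 0.0703, range over all alternatives 0.0027 to 0.817), and also under library size alone (edgeR adjusted p = 0.817) and with no filter on low counts (edgeR adjusted p = 0.0962). In efflux and transport Abca1, Apoe, Apoa1, Nr1h2 and Cyp27a1 rose and Soat1 and Nr1h3 fell. Abca1 was 2.78-fold and Cyp27a1 3.54-fold higher (edgeR adjusted p = 2.41e-05 and 7.82e-06). The log2 fold change of Apoe was 0.99, and without YHY 4 it was 0.58 (edgeR adjusted p = 0.0221, range over alternatives 0.000352 to 0.151). Library size alone ended the calls on Apoe and Nr1h2 (edgeR adjusted p = 0.151 and 0.482, the latter with a range over alternatives of 0.0016 to 0.482). The 7 genes not called were Pmvk, Tm7sf2, Mylip, Scarb1, Abcg1, Lcat and Stard3.

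Other genes of the pathway were read in 5 lists, whose counts stand against 18.5% of all genes that fell and 19.6% that rose in Model against Ctrl, and 7.62% and 5.63% in YHY against Model. Of 9 genes of the SREBP machinery and sterol-regulated degradation, 5 fell in Model against Ctrl, 1 fell in YHY against Model, and none rose in either (median log2 fold changes -0.56 and -0.49, against 0.04 and 0.02 over all genes). Erlin2, which takes part in that degradation, fell in Model against Ctrl (log2 fold change -1.06, edgeR adjusted p = 7.93e-05). Of 15 genes of the isoprenoid branch and of helper enzymes, 9 fell and 1 rose in Model against Ctrl, and 4 fell in YHY against Model (medians -0.63 and -0.35). Nus1, a subunit of the enzyme that makes dolichol precursors, fell in both (log2 fold changes -1.05 and -1.05, edgeR adjusted p = 0.00203 and 0.00893), and Pggt1b, a prenyltransferase subunit, rose in Model against Ctrl (log2 fold change 1.00, edgeR adjusted p = 8.58e-05). The mitochondrial thiolase Acat1 fell most of this list in Model against Ctrl (log2 fold change -1.88, edgeR adjusted p = 2.24e-06). Of 14 genes of lipoprotein uptake and lysosomal release, 8 fell and 1 rose in Model against Ctrl and 1 fell in YHY against Model (medians -0.77 and -0.28). Cd36, a fatty acid and lipoprotein scavenger receptor, fell in the first (log2 fold change -2.85, edgeR adjusted p = 2.38e-06), and Lrpap1, a chaperone of lipoprotein receptors, fell in the second (log2 fold change -1.04, edgeR adjusted p = 0.00495).

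Of 25 genes of sterol transport and esterification, 7 rose and 6 fell in Model against Ctrl, while library size alone gave 3 rises and 11 falls. In YHY against Model 2 rose and 4 fell. The median was -0.07 in the first, 0.0308 under upper-quartile scaling and -0.504 under library size alone, and -0.20 in the second. Apoc1, an apolipoprotein, rose most in the first (log2 fold change 3.37, edgeR adjusted p = 1.27e-05). Stard4, a soluble sterol carrier, stood at 40.3, 22.3, 29.5 and 28.1 CPM in Model 1 to 4 and 10.4, 12.3, 10.2 and 10.7 CPM in YHY 1 to 4. The groups were apart. It fell in YHY against Model (log2 fold change -1.47 ± 0.17, edgeR adjusted p = 0.000309). Of 12 genes of oxysterol and bile acid synthesis and nuclear receptor partners, 3 rose and 3 fell in Model against Ctrl, near the shares of all genes, and 2 rose and 1 fell in YHY against Model. The median was -0.02 in the first, 0.0889 under upper-quartile scaling and -0.460 under library size alone, and 0.20 in the second. Cyp7b1, an oxysterol hydroxylase, stood at 369, 307, 364 and 388 CPM in Ctrl 1 to 4 and 6.86, 6.76, 5.62 and 8.59 CPM in Model 1 to 4. Every Model mouse was far lower. It fell 51.3-fold (log2 fold change -5.68 ± 0.22, edgeR adjusted p = 3.95e-10). Cyp46a1, another sterol hydroxylase, rose in that comparison (log2 fold change 2.17, edgeR adjusted p = 0.000364). In YHY against Ctrl the 5 lists, in the order above, gave 6 falls and no rise, 11 falls and 1 rise, 9 and 2, 7 and 8, and 2 and 3, against 24.2% of all genes tested that fell and 26.1% that rose. The last 2 lists lie near these shares, and they had 10 falls and 4 rises, and 2 and 1, under library size alone, where 5977 of all genes fell and 2365 rose. Idi2, Abcg5, Abcg8, Lipc, Lipg, Cyp7a1, Cyp8b1 and Hsd3b7 had too few counts to be tested. Of the genes that moved most in these lists, Erlin1 and Soat2 in Model against Ctrl and Erlin2, Pdss2, Apom, Gramd1a, Vps13c, Cyp7b1 and Rxra in YHY against Model lost their call under at least 1 alternative.

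Some markers of kidney cell types differed between the groups and others did not. The 9 proximal tubule markers, all with counts, summed to 51616, 66724, 54059.9 and 25288 CPM in Ctrl 1 to 4, 11435, 7414, 10256 and 7207 in Model 1 to 4 and 5001, 9305, 3886 and 9919.9 in YHY 1 to 4. Kap, the most abundant, made up most of that sum in every mouse but Model 2 and YHY 3. Without Kap the 8 others summed to 6935, 8601, 7258 and 4990.2 CPM in Ctrl, 4486, 3949.8, 4342 and 3159 in Model and 1578, 3539, 2129 and 4767 in YHY. Both sums were lower in all 8 diabetic mice than in all Ctrl mice, but this order was lost with Kap and Acsm2 both left out. With Acsm2 left out too, a choice made after its values were seen, the 7 others summed to 4193, 5675, 4479 and 3426 CPM in Ctrl 1 to 4, 3721, 3514, 3752 and 2762 CPM in Model 1 to 4 and 1448, 3193, 1999 and 4161 CPM in YHY 1 to 4. Ctrl 4 then lay below Model 1, Model 2, Model 3 and YHY 4. In Model against Ctrl Kap, Acsm2, Lrp2 and Cubn fell and the other 5 were not called, with Slc34a1 at a mean of 2041 CPM in Ctrl and 2126 CPM in Model. In YHY against Model none of the 9 was called. In YHY against Ctrl 6 fell, Kap, Acsm2, Lrp2, Cubn, Slc22a6 and Slc13a3, and Slc5a12 was called higher. Slc5a12 stood at 11.6, 25.4, 23.4 and 3.69 CPM in Ctrl 1 to 4. In YHY 1 to 4 it stood at 9.12, 24.7, 19.1 and 223 CPM, so that YHY 4 alone lay above the Ctrl range. The part of tubule cell content in the synthesis falls was not tested. Loop of Henle markers averaged 1713, 888 and 1277 CPM in the 3 groups. Of these, Umod went from a mean of 921 CPM in Ctrl to 126 CPM in Model and fell, as did the scarce Cldn16, whereas Slc12a1, the most abundant over the 12 mice, averaged 784 and 758 CPM and was not called. Collecting duct markers averaged 854, 441 and 346 CPM (most abundant Aqp2), with 2 of 5, Aqp2 and Aqp3, falling in Model against Ctrl, and distal convoluted tubule markers 224, 470.2 and 406 CPM (Slc12a3), with 2 of 3, Slc12a3 and Trpm6, rising. In YHY against Model Pvalb of the distal convoluted tubule and Atp6v1g3 of the collecting duct fell. In YHY against Ctrl Umod, Cldn16, Aqp2, Aqp3, Atp6v1g3 and Pvalb fell and Slc12a3 and Trpm6 rose.

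Podocyte markers averaged 129, 154 and 107 CPM in Ctrl, Model and YHY (most abundant Podxl), endothelial markers 179, 205 and 204 (Emcn), fibroblast and pericyte markers 154, 184 and 219.7 (Pdgfra), macrophage markers 186, 228 and 294 (Lyz2), and T and B cell markers 0.964, 0.455 and 0.835 (Cd79a). Without Lyz2, the 5 other macrophage markers averaged 98.6, 83.1 and 87.9 CPM. In Model against Ctrl Lyz2 was not called, Cd68 rose, and C1qa and C1qb fell. In the same comparison Nphs1 and Synpo of the podocyte, Flt1 of the endothelial and Pdgfra and Pdgfrb of the fibroblast and pericyte markers rose, and none of these 3 lists had a fall. In YHY against Ctrl Nphs1, Synpo, Wt1, Flt1, Pdgfra, Pdgfrb, Cd68 and Lyz2 rose and Podxl and C1qa fell. Markers of adrenal cortex, fat and liver, which handle cholesterol, were read as well. Of the 8 adrenal cortex markers Cyp11b2 had 0 counts in all 12 mice and Cyp21a1 and Nr5a1 at most 2 in any mouse, and the sum of 2.64, 16.6 and 16.2 CPM was mostly Hsd3b1 and Star. Of the 7 fat markers Plin4 made up most of 1.96, 15.7 and 37.9 CPM, with Adipoq at most 10 counts in any mouse. Of the 6 liver markers Cyp2e1, which kidney tubules also express, made up most of 1226, 225 and 142 CPM. In Model against Ctrl Hsd3b1 and Star rose (mean 0.648 and 1.68 CPM in Ctrl, 12.0 and 4.21 CPM in Model), as did Plin4 (1.49 and 14.2 CPM) and Ttr, a liver marker, while Cyp2e1 fell. Plin4 rose again in YHY against Model, to 36.8 CPM, and no other marker of these 3 lists was called there. In YHY against Ctrl Hsd3b1, Star, Plin4 and Ttr rose and Cyp2e1 and Apoa2, another liver marker, fell. The part of such cells in the results was not tested.

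**Figure D5:**
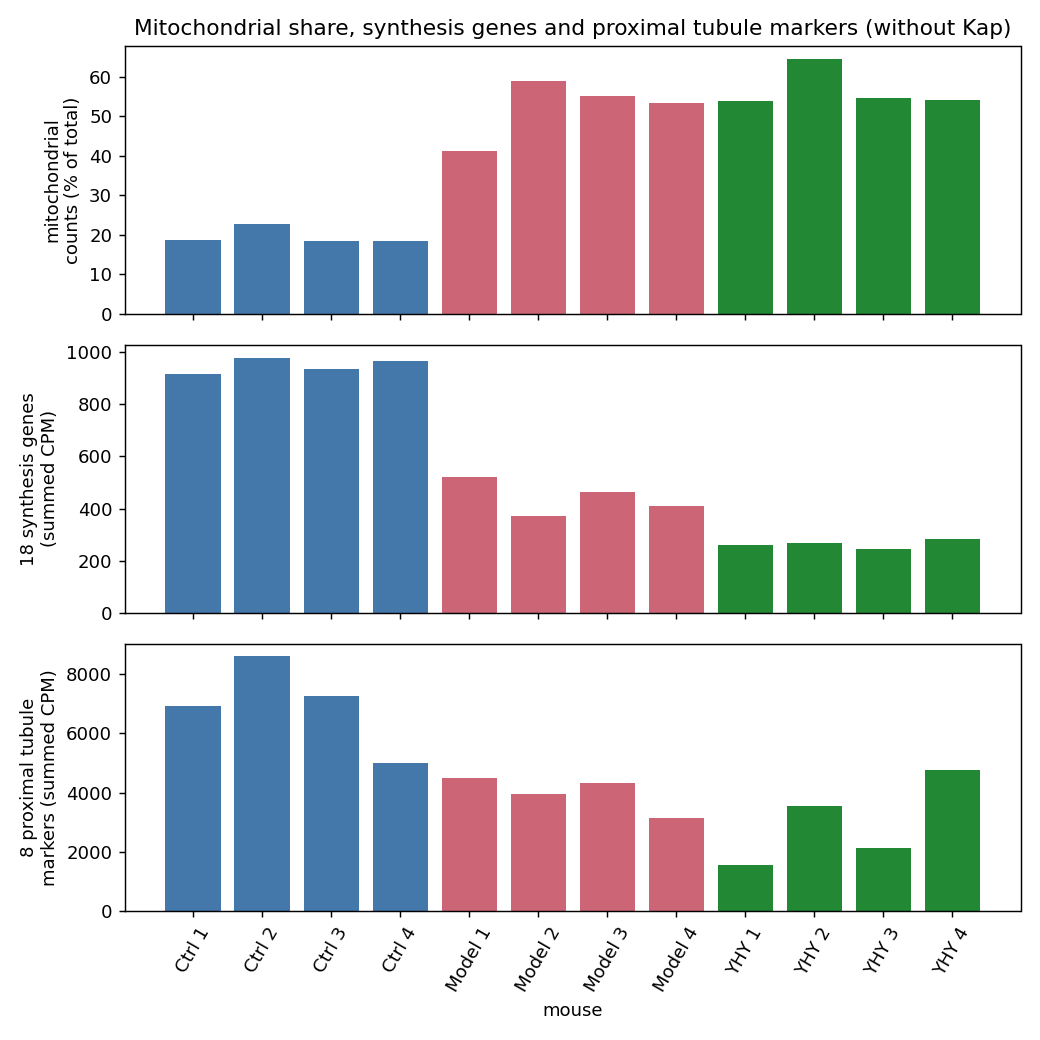
Percent of counts from mitochondrial genes, summed CPM of the 18 synthesis genes and summed CPM of the 8 proximal tubule markers other than Kap, for each mouse of Ctrl, Model and YHY. Both diabetic groups are above Ctrl in mitochondrial percent and below it in the synthesis sum. They are also below Ctrl in the sum of the 8 markers, an order that is lost when Acsm2 is left out.

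Some members share bases with a neighbouring gene, and whether strand was used in counting is not stated, so that reads of the pairs cannot be told apart there. Ctsb, which held 139533 counts over the 12 mice against 8157 of Fdft1, overlaps that gene, Akap9 overlaps Cyp51 and Rmc1 overlaps Npc1 on the opposite strand, and Vps51 overlaps Tm7sf2 on the same strand. Akap9 held 27.6% as many counts as Cyp51 over the 12 mice. Akap9 averaged 31.9 CPM over Ctrl, 24.5 CPM over Model and 34.6 CPM over YHY mice. The Model mean is above Cyp51 in Model 1 and Model 2, and the YHY mean is above Cyp51 in each YHY mouse, so that the low levels of Cyp51 in both groups, and its fold changes in all 3 comparisons, are uncertain in size. Akap9 was not called in Model against Ctrl (log2 fold change -0.38, edgeR adjusted p = 0.072) or YHY against Model (log2 fold change 0.49, edgeR adjusted p = 0.0514). Rmc1 rose in YHY against Model with Npc1 (log2 fold change 0.63, edgeR adjusted p = 0.0171). Vps51 fell in Model against Ctrl with Tm7sf2 (log2 fold change -1.11, edgeR adjusted p = 0.000443) and rose in YHY against Model (log2 fold change 0.62, edgeR adjusted p = 0.0477). Ctsb fell in YHY against Ctrl with Fdft1 (log2 fold change -0.58, edgeR adjusted p = 0.0168). The rise of Npc1, the fall of Tm7sf2 and all values of Fdft1 are therefore uncertain. Fdps shares 80.4% of its transcript's 75-base stretches with other genes, Acat2 40.7% with Acat3, Idi1 20.7% and Fdft1 6.07%, which adds to the uncertainty of these 4 genes.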

How the data were processed

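Gene-level raw counts of kidney mRNA from 12 mice, 1 column per mouse, were used as deposited by the authors. The submitters' processing notes name FastQC 0.11.9, Trimmomatic 0.39, HISAT2 2.2.1, SAMtools 1.12, featureCounts 2.0.1 (Subread), DESeq2 1.34.0 and R 4.1.2, and the build GRCm39 (mm39), which the gene coordinates follow. The annotation release and the use of strand in counting are not given in the sources used here. The comparison tables the authors deposited hold a signal, group means of scaled counts that rest on 9 mice (without Ctrl 2, Model 1 and YHY 4), together with fold changes and p-values, and other tables hold their pathway tests. The means served only to choose an alternative, and the fold changes, p-values, pathway tests and 12 per-mouse columns were not used. The 480 genes with an ID and no symbol held 0.139% to 0.262% of counts and stayed in the fit.

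Counts were fitted with edgeR 4.0.16 in R 4.3.3 (TMM, filterByExpr, glmQLFit and glmQLFTest) in 1 model of 3 groups over 12 mice, and the code was tested on simulated data. The SE is the absolute log2 fold change over the root of the F statistic, and 95% intervals use the degrees of freedom of the fit. Levels per kilobase divide CPM by the deposited gene length. Within each group no 2 mice had like counts (chi-square per degree of freedom 17.3 to 138.9).

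Members and lists were chosen with earlier results of these data known. Values in every mouse are given for the 12 called members with the smallest p in Model against Ctrl and the 12 in YHY against Model, and for the most abundant member of each role per length, with other members by range and counts. Of other lists, the genes named are at most the 2 largest rises and 2 largest falls called. Alternatives were DESeq2 1.42.0, upper-quartile scaling, library size alone, no mitochondrial genes, no filter, at least 10 counts in every mouse, only the mice of a comparison, a block for the replicate number, the 9 mice above, a fold change over 1.2 with unadjusted p under 0.05, and each mouse left out in turn. The same alternatives were applied to the other lists after the data had been seen. Promoters came from RefSeq. Figures used matplotlib 3.10.9 under Python 3.11.15.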

Additional observations from a re-analysis of the deposited data

Results flagged for a closer look

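In each group of 4 mice the gap between the mouse farthest out and its nearest neighbour was divided by the group's range and set against Dixon's limit. Of 162 groups 16 passed it, where chance gives about 1 in 20. Among members, YHY 2 was apart in Mvk (highest, 5.64 CPM), Idi1 (lowest, 0.111 CPM), Nr1h2 (highest, 121 CPM) and Cyp27a1 (highest, 126 CPM). Model 1 was apart in Sc5d (highest, 24.3 CPM) and Cyp27a1 (lowest, 40.0 CPM). Single mice also stood apart in Pmvk (YHY 1 lowest, 5.19 CPM), Mvd (YHY 3 lowest, 10.1 CPM) and Apoe (YHY 4 highest, 371 CPM).

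Among summed markers, distal convoluted tubule was highest in YHY 2 (572 CPM), endothelial lowest in Ctrl 2 (141 CPM), T and B cell highest in Ctrl 1 (1.75 CPM) and fat lowest in Model 1 (9.08 CPM). The mitochondrial share was highest in Ctrl 2 (22.7%) and YHY 2 (64.6%) of their groups, and Ctrl 2 had the fewest counts of the Ctrl libraries (29632718).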

How the results depend on the processing

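Of the 22, 13 and 29 members called in Model against Ctrl, YHY against Model and YHY against Ctrl, 15, 8 and 25 were called the same way under every alternative run, and no called member changed direction under any. Of 27 other pathway genes taken by the rule, 18 held under every alternative, which were applied to them after seeing the data, and none changed direction. Rises in Model against Ctrl numbered 2 under library size alone, and 2 to 5 with each mouse left out. Rises in YHY against Ctrl numbered 3 under library size alone. Rises in YHY against Model numbered 1 under library size alone, without a filter, with the 8 mice compared, with the replicate block and with the 9 mice, 4 under the fold change of 1.2, and 1 to 2 with each mouse left out. Falls there numbered 7 under library size alone and 18 under the fold change of 1.2. The cause was not tested. A shorter sterol element, CACNCCA, was in 9 of 30 members' promoters and in 3 of the 15 of synthesis genes (20%), against 20.6% of all genes. The other shorter forms were in 30 of 30 against 99.6% (CAA), 30 of 30 against 65.6% (GGCG), 7 of 30 against 33.8% (ACGT) and 0 of 30 against 0.0703% (direct repeat). The E-box thus went from above to below the share of all genes. CAA is in nearly every window, so this form cannot set members apart and says nothing on the CCAAT box.

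Over all genes, rises in YHY against Model numbered 491 under library size alone, 2429 under the fold change of 1.2 and 634, 419 and 600 without Model 1, Model 3 or Model 4, against 982. They numbered 1068 without a filter, 693 with the 8 mice compared, 793 with the replicate block and 860 with the 9 mice. With each mouse left out they numbered 419 to 1045 in YHY against Model and 2507 to 3624 in Model against Ctrl. Falls numbered 686 under library size alone, 2559 under the fold change of 1.2, 727 without Model 3 and 692 with the 8 mice compared, against 1329. Library size alone gave 1547 rises and 5667 falls in Model against Ctrl, against 3412 and 3219, and 2365 rises in YHY against Ctrl, against 4547.

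Of the members not called, 7, 9 and 4 in the same order gained a call under at least 1 alternative, in the direction they had. Fdft1 in Model against Ctrl did so under 10 of 22 alternatives (adjusted p 0.00836 to 0.149 over edgeR and DESeq2 alternatives) and Insig1 under 4 (0.0161 to 0.331). In YHY against Model Insig1 was called lower under 6 (0.00711 to 0.151), Hsd17b7 lower under 5 (0.0116 to 0.177), and Tm7sf2 higher under 2, DESeq2 (adjusted p = 0.0448, range 0.0448 to 0.238) and the fold change of 1.2. In YHY against Ctrl Lcat was called higher under 10 of 21 (0.0147 to 0.188). The cause was not tested.

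Other uncalled members changed sign under an alternative and were not called there. Their log2 fold changes in Model against Ctrl were -0.161 for Scap, -0.394 for Mylip and -0.282 for Stard3 under library size alone, -0.00077 for Mylip without a filter, and 0.0707 and 0.0106 for Npc1 under upper-quartile scaling and with at least 10 counts. With each mouse left out in turn they ran from -0.419 to 0.0206 for Pmvk, from -0.147 to 0.150 for Mylip and from -0.413 to 0.0149 for Abcg1. For YHY against Model they were 0.0234 for Pmvk with the replicate block, 0.0367 for Sc5d with the 9 mice and 0.00397 for Scarb1 with the 8 mice, and, with each mouse left out, from -0.225 to 0.234 for Pmvk, from -0.0626 to 0.127 for Insig2 and from -0.155 to 0.0306 for Scarb1. For YHY against Ctrl Mylip was -0.135 under library size alone. The cause was not tested.

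Correlations between mice do not settle whether the replicate numbers pair them. Of 12 same-numbered pairs 3 correlated over 0.1 (range -0.23 to 0.19), and 4 mice correlated best with their own number. With the number as a block, 18 members fell and 4 rose in Model against Ctrl, with 3077 falls and 3212 rises among all genes. YHY against Model had 11 falls and 1 rise among members, and 1127 and 793 among all genes. YHY against Ctrl had 23 and 6 among members, and 4165 and 4259 among all genes. The block ended the calls on Nsdhl and Npc1 in YHY against Model (edgeR adjusted p = 0.066, range over alternatives 0.00961 to 0.113, and 0.0564, range 0.00625 to 0.134). The scarcest members had few counts in their lowest mouse, 14 for Apoa1, 4 for Lcat and 2 for Idi1, and what depth limits there was not tested.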
